A study of Mus musculus with 6 samples.

Results

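Dntt, Flt3, Il7r, Ccr9 and Ccr7 are genes that blood progenitors switch on as they begin to turn towards the lymphoid lineage. Cd27, which most multipotent progenitors already carry, was read together with them. These 6 genes encode 1 enzyme and 5 surface receptors. They were taken by gene symbol from a table of 13935 genes measured by RNA-seq in sorted mouse bone marrow cells, and all 6 were found. The cells were called long-term hematopoietic stem cells (LT-HSCs) by the study's title and stem and progenitor cells by the sample labels. The study asked whether Mel18, a polycomb protein encoded by Pcgf2, changes transcription in these cells. The libraries came from 3 wild-type mice (replicates 1 to 3) and 3 mice (replicates 4 to 6) in which Mel18 was conditionally deleted from blood cells, 1 mouse per library by the labels. The deposited table names its own comparison Cre+ against Cre-, so that an effect of the recombinase Cre cannot be told apart from loss of Mel18 if Cre+ stands for the knockout. The sources used here do not give the Cre driver, the exons removed, the sort gate, or the age and sex of the mice. P-values measure the spread between these libraries only.

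Lymphoid priming is the early, low-level expression of lymphoid genes in progenitors that can still make other blood cells. In mice, progenitors that gain FLT3 on their surface lose the capacity for long-term renewal, and those with the highest FLT3 start to express Dntt, the recombination-activating genes and Il7r before any B or T cell marker appears. CCR9 and CCR7 then guide such progenitors from the blood to the thymus, while CD27 is carried by most multipotent progenitors and lymphocytes.

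Libraries held 26469336 to 37180701 counts, and 3 counts corresponded to 0.0782 to 0.115 CPM, that is, counts relative to TMM-scaled library totals. Pcgf2 counts were 43, 68 and 54 in wild type and 72, 72 and 107 under the knockout label, every knockout-labelled count above every wild-type count, the opposite of what the label would give. Its CPM, 1.47, 2.61 and 1.70 against 1.88, 1.88 and 3.36, overlapped. Such counts cannot tell which exons were removed, and all directions below are between libraries by their labels. Knockout replicate 6 lay at 167 on the leading principal component of the log2 values, against -71.6 to 7.75 in the other 5 libraries. Without that library the log2 fold changes, knockout minus wild type, were -6.82 for Dntt, -1.91 for Flt3, -6.14 for Ccr9, -3.81 for Ccr7 and 0.13 for Cd27, and Il7r was at 0 in the knockout libraries that remained; 0 of the 6 genes passed the main test with or without it.

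The promoters of these genes are shown because polycomb complexes in mammals are found mostly at promoters rich in CpG, and because Ikaros and the ETS factor PU.1 act on lymphoid genes. RefSeq windows on GRCm38.p6, from 250 bases before to 50 bases after the annotated start, were at hand for 5 of the 6 genes. Capitals mark GGAA, the core that ETS factors bind, on either strand (TTCC on the strand shown).
Dntt, chr19:41029025-41029324, plus strand: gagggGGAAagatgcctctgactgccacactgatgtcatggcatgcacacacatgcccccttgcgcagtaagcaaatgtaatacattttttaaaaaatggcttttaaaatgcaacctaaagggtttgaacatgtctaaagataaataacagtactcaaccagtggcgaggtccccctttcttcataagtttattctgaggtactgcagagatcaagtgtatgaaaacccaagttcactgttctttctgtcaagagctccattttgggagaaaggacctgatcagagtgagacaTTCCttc
Flt3, chr5:147400440-147400739, minus strand: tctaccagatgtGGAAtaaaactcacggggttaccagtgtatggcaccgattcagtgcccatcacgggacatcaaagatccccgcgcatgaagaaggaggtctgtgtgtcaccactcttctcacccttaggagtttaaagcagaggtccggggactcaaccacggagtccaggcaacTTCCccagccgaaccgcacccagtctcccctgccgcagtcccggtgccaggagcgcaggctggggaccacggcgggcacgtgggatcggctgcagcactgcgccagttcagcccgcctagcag
Il7r, chr15:9529827-9530126, minus strand: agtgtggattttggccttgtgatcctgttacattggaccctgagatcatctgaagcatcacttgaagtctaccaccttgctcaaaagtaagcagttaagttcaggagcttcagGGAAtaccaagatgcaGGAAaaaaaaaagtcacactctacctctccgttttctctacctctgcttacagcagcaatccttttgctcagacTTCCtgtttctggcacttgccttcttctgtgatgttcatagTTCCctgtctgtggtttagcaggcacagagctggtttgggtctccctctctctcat
Ccr9, chr9:123766961-123767260, plus strand: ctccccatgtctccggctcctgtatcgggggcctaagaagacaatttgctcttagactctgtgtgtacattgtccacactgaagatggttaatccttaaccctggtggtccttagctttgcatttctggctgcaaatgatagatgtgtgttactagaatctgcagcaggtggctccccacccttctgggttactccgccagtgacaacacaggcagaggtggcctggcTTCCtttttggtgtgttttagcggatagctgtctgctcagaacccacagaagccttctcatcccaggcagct
Cd27, chr6:125236978-125237277, minus strand: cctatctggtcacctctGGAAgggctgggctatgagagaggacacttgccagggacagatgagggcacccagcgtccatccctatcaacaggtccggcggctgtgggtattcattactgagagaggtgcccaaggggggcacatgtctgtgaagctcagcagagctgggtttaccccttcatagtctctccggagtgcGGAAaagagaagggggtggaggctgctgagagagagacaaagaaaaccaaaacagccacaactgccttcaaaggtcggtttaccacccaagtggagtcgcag

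The windows differed widely in CpG. Dntt held 2 CpG dinucleotides, Il7r 1 and Ccr9 4, Cd27 7 and Flt3 18, where the median of 32851 windows was 7. The G and C content was 42.3% for Dntt, 45.7% for Il7r, 51.3% for Ccr9, 56.0% for Cd27 and 61.0% for Flt3, against a median of 52.7%. GGAA occurred 4 times in the Il7r window, 2 times each in those of Dntt, Flt3 and Cd27 and 1 time in that of Ccr9, and 96.0% of all windows hold it. GGGAA, the core that Ikaros binds, which contains GGAA, was found on either strand in the windows of Dntt, Flt3 and Il7r but not in those of Ccr9 and Cd27, and 62.7% of all windows hold it. The E-box CAGGTG, read on both strands, was found in the Ccr9 window alone of these 5, and 20.2% of all windows hold it. TATAAA was found in none of the 5 windows on either strand, and 13.6% of all windows hold it. These matches describe letters in the windows and say nothing of binding.

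Dntt encodes terminal deoxynucleotidyl transferase, the polymerase that adds random bases to the joints of antigen receptor genes. It lies on mm10 chromosome 19 (41029275 to 41059525, plus strand), where its deposited exon coordinates merge into 12 exons. It had 34932, 9983 and 12237 counts in wild-type replicates 1 to 3, against 406, 39 and 305 counts in knockout replicates 4 to 6. These were 1197, 383 and 386 CPM against 10.6, 1.02 and 9.58 CPM. The lowest wild-type library thus stood far above the highest library labelled knockout, and knockout replicate 5 was the lowest of all. Dntt averaged 655 ± 469 CPM in wild type and 7.06 ± 5.26 CPM in knockout (SD, n = 3 each), a ratio of 92.8. On the log2 scale Dntt differed by -6.54 (SE 0.96), knockout minus wild type. The main test was edgeR's quasi-likelihood (QL) test, adjusted over 12603 genes by Benjamini and Hochberg's method, and Dntt missed its threshold of 0.05 (adjusted p = 0.0592). Leaving out single libraries gave adjusted p-values from 0.0515 to 0.261. The call depended on the test. In DESeq2 the adjusted p was 2.56e-08, in edgeR's likelihood ratio test 6.91e-09, in the newer form of edgeR's quasi-likelihood test 0.00289 and in limma-voom 0.0696, with log2 fold changes from -6.97 to -6.52 in these 4 tests. The fold change stayed between -6.95 and -5.77 when each library was left out in turn. In bulk samples such as these, fewer cells that express a gene and less of its RNA per cell cannot be told apart.

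Flt3 encodes the receptor tyrosine kinase for FLT3 ligand, which drives the growth of multipotent and lymphoid progenitors. It lies on chromosome 5 (147330742 to 147400489, minus strand). Flt3 counts were 12362, 3207 and 12003 in wild type (424, 123 and 378 CPM), and those labelled knockout had 5140, 1136 and 2348 (134, 29.6 and 73.8 CPM). The groups overlapped, since wild-type replicate 2 lay below knockout replicate 4. Flt3 averaged 308 ± 162 CPM in wild type and 79.1 ± 52.4 CPM in knockout (SD, n = 3 each). The difference of -1.96 (SE 0.61, log2) missed the threshold of the QL test (adjusted p = 0.257). DESeq2 and edgeR's likelihood ratio test gave adjusted p-values of 0.0109 and 0.0431 at nearly the same fold change.

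Il7r encodes the alpha chain of the interleukin-7 receptor, without which mouse B and T cell precursors fail to expand. It lies on chromosome 15 (9506159 to 9529876, minus strand). Wild-type counts were 538, 11 and 161 (18.4, 0.422 and 5.07 CPM), and those of the knockout-labelled libraries 0, 0 and 26 (0.817 CPM in replicate 6). The wild-type libraries differed from each other by a factor of 43.7, and replicate 2 was below knockout replicate 6. The log2 fold change of -4.87 (SE 2.25) missed the threshold of the QL test (adjusted p = 0.449) and passed in none of the alternatives run. All 26 counts in the knockout group came from replicate 6. Il7r averaged 7.98 ± 9.35 CPM in wild type and 0.272 ± 0.472 CPM in knockout (SD, n = 3 each).

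Ccr9 and Ccr7 encode receptors for the chemokines CCL25 and for CCL19 and CCL21, which attract progenitors to the thymus and lymphocytes to lymph nodes. Ccr9 (chromosome 9, 123767211 to 123783457, plus strand) had 576, 59 and 30 counts in wild type (19.7, 2.26 and 0.945 CPM), against 0, 8 and 0 in those labelled knockout. Ccr7 (chromosome 11, 99144199 to 99155077, minus strand) had 527, 98 and 44 counts (18.1, 3.76 and 1.39 CPM) against 42, 0 and 0. In neither gene did the groups overlap, but the lowest wild-type library of Ccr7, at 1.39 CPM, was close to knockout replicate 4 at 1.09 CPM. Wild-type replicate 1 held 86.0% of the summed wild-type CPM of Ccr9, 77.8% of that of Ccr7 and 77.0% of that of Il7r, against 60.9% for Dntt and 45.8% for Flt3. The log2 fold changes were -6.68 (SE 2.15) for Ccr9 and -4.39 (SE 2.14) for Ccr7, and neither passed the QL test (adjusted p = 0.271 and 0.468). Without wild-type replicate 1 they were -4.44 and -2.80, and that of Il7r was -3.33. Ccr9 passed in DESeq2 (adjusted p = 0.00458) and in edgeR's likelihood ratio test (adjusted p = 0.0474), and Ccr7 in none of the alternatives run.

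Cd27 encodes a receptor of the TNF receptor superfamily whose ligand is CD70. It lies on chromosome 6 (125232622 to 125237027, minus strand). Its counts were 8413, 3253 and 7574 in wild type (288, 125 and 239 CPM), and 10921, 7328 and 9975 in those labelled knockout (285, 191 and 313 CPM). Cd27 was thus abundant in all 6 libraries, with overlapping groups, and wild-type replicate 2 was the lowest. Its log2 fold change of 0.28 (SE 0.34) did not pass the QL test (adjusted p = 0.815). The 95% interval of the log2 fold change ran from -0.50 to 1.06. Without wild-type replicate 2 the value was -0.01.

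**Figure D1:**
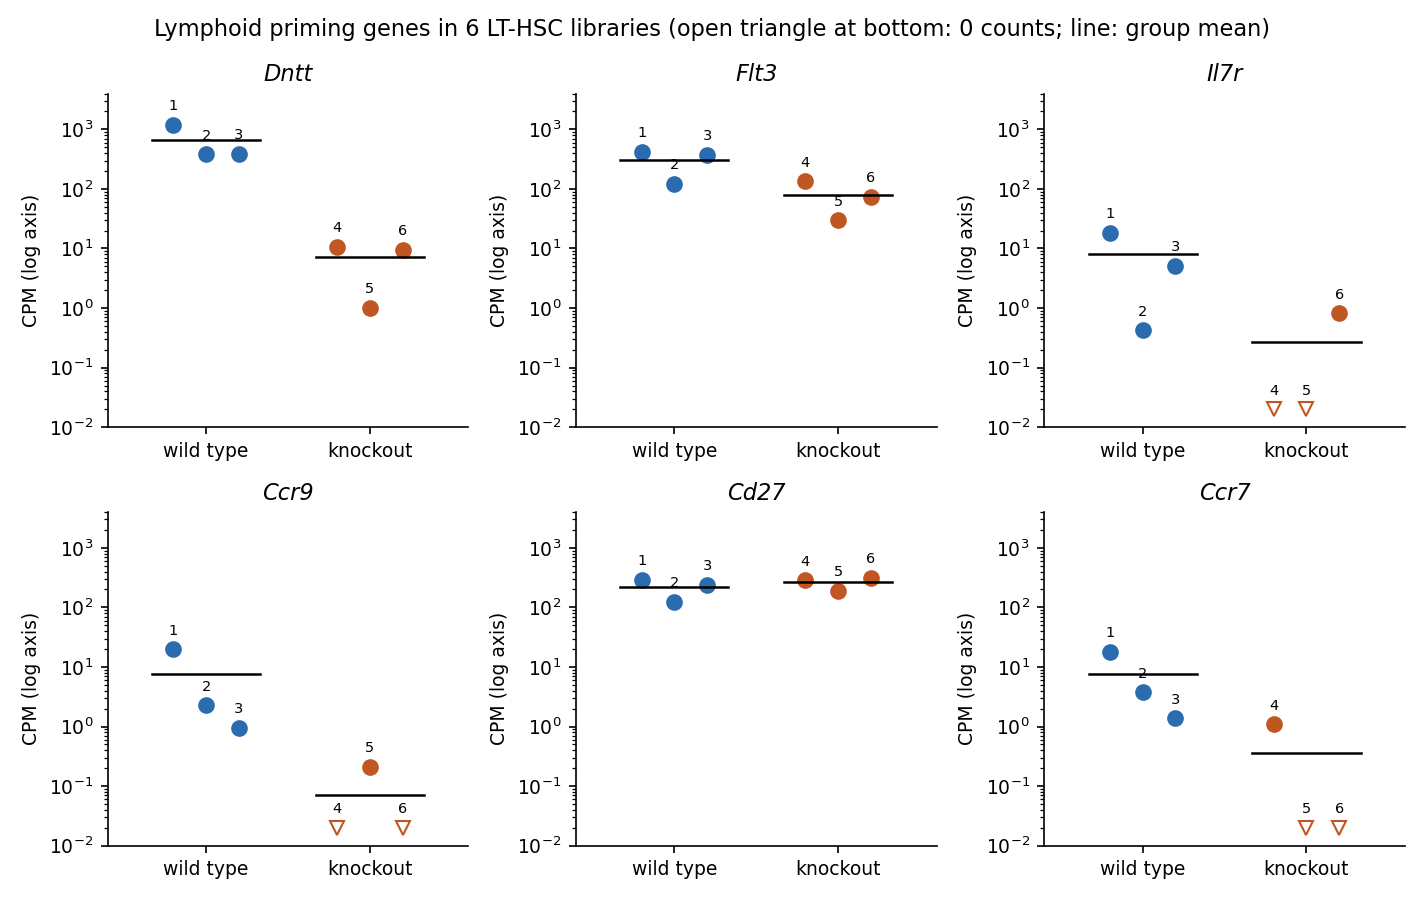
CPM on a log axis of each gene in the 3 wild-type and 3 knockout libraries, numbered by replicate; the line is the group mean and open triangles at the bottom are libraries with 0 counts. Dntt separates the groups by the widest gap, from 10.6 to 383 CPM, Ccr9 and Ccr7 separate them at low levels, and Flt3, Il7r and Cd27 overlap.

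Across the set, 5 of 6 genes were fitted lower in the libraries labelled knockout, where 50.4% of all 12603 tested genes were. Of the 6, 0 passed the QL test as lower, against 0.127% of all genes, and 0 as higher, against 0.0159%. Dntt, Flt3 and Ccr9 had an unadjusted p below 0.05, against 6.51% of all genes that were lower at that level. DESeq2 called 3 of 6 lower (Dntt, Flt3 and Ccr9), with 2.58% of all genes called lower. The likelihood ratio test called the same 3, with 2.29% of all genes lower, the newer quasi-likelihood form called Dntt alone, with 0.532%, and limma-voom called 0 of 6 and 0 of all genes, with 1775 genes at an unadjusted p below 0.05. The groups did not overlap for Dntt, Ccr9 and Ccr7, where every library labelled knockout was below every wild-type library for 11.3% of all genes. These counts describe the set and do not test it, since Ccr9 reached the level of the count filter (0.31 CPM) in wild-type libraries only and Il7r and Ccr7 in 1 library labelled knockout each. A two-sided exact permutation test on log2 CPM gave p = 0.1 for Dntt, Ccr9 and Ccr7, the smallest value that 3 against 3 libraries allow, 0.2 for Flt3 and Il7r and 0.6 for Cd27.

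**Figure D2:**
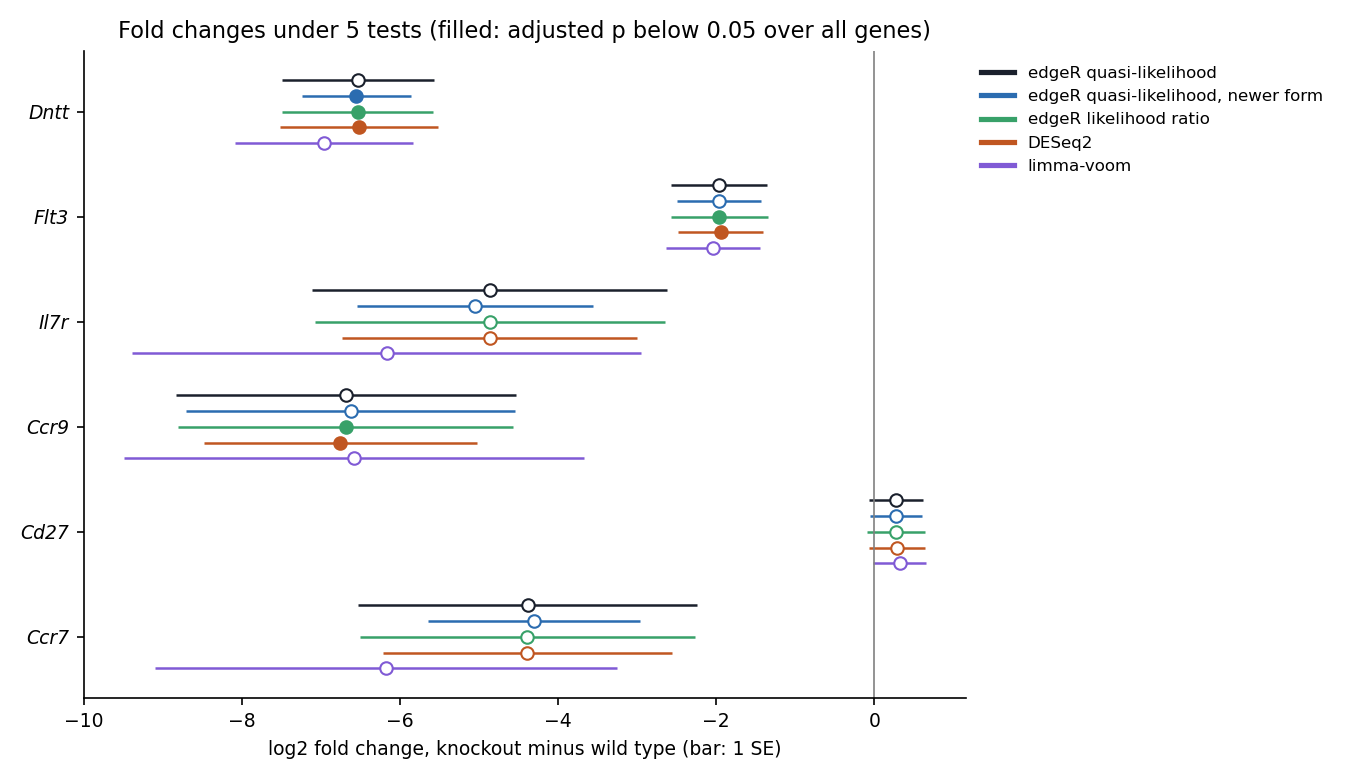
Log2 fold changes, knockout minus wild type, under 5 tests, with bars of 1 SE; filled points passed an adjusted p of 0.05 over all genes. Points of a gene lie close together across tests except for Il7r and Ccr7 in limma-voom (-6.17 and -6.18), while the SEs and the calls differ.

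**Figure D3:**
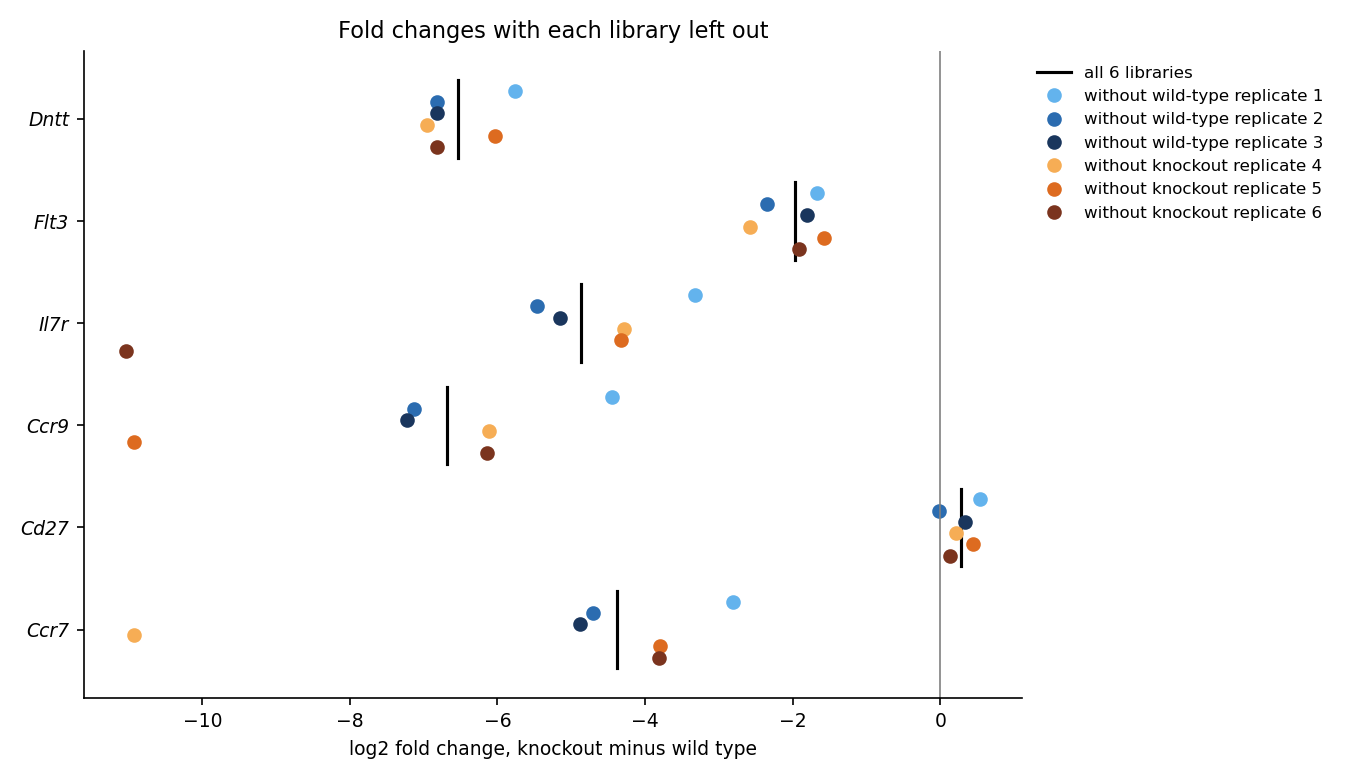
Log2 fold changes from the QL fit with each library left out; the black line is the value with all 6. Dntt moves between -6.95 and -5.77. The values near -11 of Il7r, Ccr9 and Ccr7 arise where the libraries left in the knockout group are at 0. Their size depends on the default prior count of edgeR's fit, which is not the one used for log2 CPM.

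Per kilobase of exon, the order of the genes differed between the groups. In the wild-type libraries the levels were 308 ± 220 CPM per kilobase for Dntt, 138 ± 53.2 for Cd27 and 84.3 ± 44.3 for Flt3 (SD, n = 3 each). Those of Ccr7, Il7r and Ccr9 were 3.92 ± 4.57, 2.49 ± 2.91 and 1.74 ± 2.39 CPM per kilobase. Flt3 stood apart from Ccr7 beyond their spread, while the SD ranges of all other neighbours in this order met, although Dntt was above Cd27 in each of the 3 wild-type libraries. In the libraries labelled knockout Cd27 came first (167 ± 40.6 CPM per kilobase), then Flt3 (21.6 ± 14.3) and Dntt (3.31 ± 2.47). The level of Cd27 in knockout replicate 5 was 121 CPM per kilobase, where that of Dntt was 0.478. Ccr7, Il7r and Ccr9 followed, at 0.185 ± 0.320, 0.0848 ± 0.147 and 0.0158 ± 0.0274 CPM per kilobase.

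In the authors' deposited table Dntt had the smallest p-value of all 13935 genes, 2.96e-05, with a log2 fold change of -6.95. The authors' deposited table lists its FDR as 0 and that of the other 13934 genes as 1. Benjamini-Hochberg adjustment of the p-values in the authors' deposited table gives 0.413 for Dntt, the smallest value of any gene, so that an FDR of 0 there is not an adjusted p near 0. The authors' deposited table gives log2 fold changes of -5.78 for Ccr9 and -1.31 for Flt3, but 0.21 for Il7r and 0.18 for Ccr7, the opposite sign to the counts, and -0.16 for Cd27. Over all tested genes the sign in the authors' deposited table was that of the count fit for 65.1%. The sources used here do not say which libraries and terms entered that comparison, and the cause was not tested.

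The recombination and end-joining list had 10 tested members besides Dntt, 7 fitted lower with a median log2 fold change of -0.80, against -0.01 over all genes, and 0 passed. Rag2, which with Rag1 cuts antigen receptor genes, had 708, 199 and 111 counts against 0, 68 and 0 (log2 fold change -4.31, SE 2.01), so its groups did not overlap, and Rag1 was not analysed here. Hmgb2, a chromatin protein that assists the RAG proteins and is also raised in dividing cells, averaged 1093 ± 285 and 525 ± 94.6 CPM. Lig4, the ligase of end joining, had 22, 9 and 144 counts against 0, 0 and 0, which is at least 72.8-fold lower if 3 counts over the knockout group are taken as the floor. Wild-type replicate 3 held 144 of these 175 counts, and without it the bound is 20.3-fold. Of the other mammalian polymerases of family X, to which the Dntt enzyme belongs, Poll and Polb had log2 fold changes of -0.36 (SE 0.32) and 0.25 (SE 0.30). Polm, also of this family, had 0, 358 and 36 counts against 0, 344 and 255, and its log2 fold change of 0.19 (SE 2.15) was not resolved.

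The FLT3 list had 7 of 12 members fitted lower (median -0.12) and 0 passed. Flt3l, the ligand, averaged 12.1 ± 1.93 and 18.4 ± 7.07 CPM, Pik3cd, a lipid kinase, 179 ± 92.8 and 108 ± 31.3 CPM, and Cblb, a ubiquitin ligase, 21.1 ± 5.82 and 13.4 ± 1.87 CPM. The IL-7 receptor list had 4 of 13 members fitted lower (median 0.30) and 0 passed. Il2rg, the chain that pairs with IL7R to bind interleukin-7, had 12992, 10650 and 14121 counts against 21003, 14004 and 14328 (log2 fold change 0.07, SE 0.22). Crlf2, with which IL7R forms the receptor for TSLP, averaged 37.2 ± 7.30 and 64.0 ± 32.2 CPM and was higher in all 3 libraries labelled knockout than in any wild-type library. Cish, an inhibitor that STAT5 switches on, averaged 20.8 ± 10.1 and 77.6 ± 17.4 CPM (log2 fold change 1.90, SE 0.41), which did not pass the QL test (adjusted p = 0.143). The cytokine genes themselves were low, Il7 at 2.34 ± 2.31 and 5.63 ± 4.15 CPM and Tslp at 2.71 ± 0.45 and 5.56 ± 4.41 CPM.

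The list of CCR7 and CCR9 ligands and signalling proteins had 6 of 10 members fitted lower (median -0.11) and 0 passed. Ccl25, the CCR9 ligand, had 246, 199 and 136 counts against 398, 190 and 9. Ccl19, a CCR7 ligand, averaged 0.952 ± 1.09 and 4.62 ± 3.56 CPM and Grk6, a kinase that turns off chemokine receptors, 212 ± 33.9 and 143 ± 15.3 CPM. The CD27 list had 6 of 9 fitted lower (median -0.05) and 0 passed, with Traf3 at 24.1 ± 7.66 and 9.23 ± 6.83 CPM and Traf5 at 11.4 ± 3.30 and 23.7 ± 9.47 CPM, both adaptors of TNF receptors. Ccl21a and Cd70 were not analysed here. With each library left out in turn, the medians ran from -1.02 to -0.55 for the recombination list, -0.27 to 0.04 for FLT3, 0.10 to 0.54 for the IL-7 receptor, -0.14 to -0.04 for CCR7 and CCR9 and -0.40 to 0.06 for CD27, so that those of FLT3 and CD27 had no stable sign. Calls of 0 in these 5 lists are from the QL test, in which 1496 of all genes had an unadjusted p below 0.05.

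Among relatives of the receptors, 1 gene passed the QL test. Of 11 other chemokine receptors tested, 7 were fitted lower (median -0.23, from -2.16 without knockout replicate 4 to 0.02 without knockout replicate 5) and Ccr2, the receptor of inflammatory monocytes, fell, with 726, 304 and 865 counts against 0, 0 and 1. Of 14 other members of the TNF receptor superfamily, 5 were fitted lower (median 0.12) and 0 passed. Tnfrsf17, or BCMA, a receptor of plasma cells, had 165, 768 and 140 counts against 0, 7 and 0, and Cd40, a receptor of B cells and dendritic cells, had 75, 192 and 44 counts against 0 in all 3, at least 129-fold lower against the same floor and at least 70.7-fold without wild-type replicate 2. Of the kinases related to FLT3, Csf1r, the receptor for M-CSF, had 1501, 415 and 2698 counts against 0, 21 and 5 (log2 fold change -7.72, SE 1.26, adjusted p = 0.0762 in the QL test), and Pdgfrb averaged 62.7 ± 65.1 and 13.5 ± 5.60 CPM. Kit, the most abundant of these kinases, averaged 428 ± 150 and 469 ± 66.7 CPM with overlapping groups (log2 fold change 0.13, SE 0.29). Among receptors built like that for interleukin-7, Il21r had 1910, 1196 and 1644 counts against 4015, 4046 and 4556, and Il15ra averaged 29.7 ± 5.19 and 50.1 ± 17.3 CPM. Other receptors of that family lay the other way: Il4ra had 3354, 1707 and 5801 counts against 2030, 2440 and 3371 (log2 fold change -0.71, SE 0.41), Il2ra had 41, 65 and 0 counts against 0 in all 3, and Il2rb had 0, 229 and 71 counts against 0, 0 and 3, both removed by the count filter. The 3 tested kinase genes had a median of -2.21 (-2.63 to -0.92 with each library left out). The cytokine receptors had a median of 0.75 over 3 tested genes, but it was negative in 4 of the 6 fits with a library left out (-1.06 to 0.75), some of which tested more of them. Of the kinases and cytokine receptors, 0 passed the QL test.

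**Figure D4:**
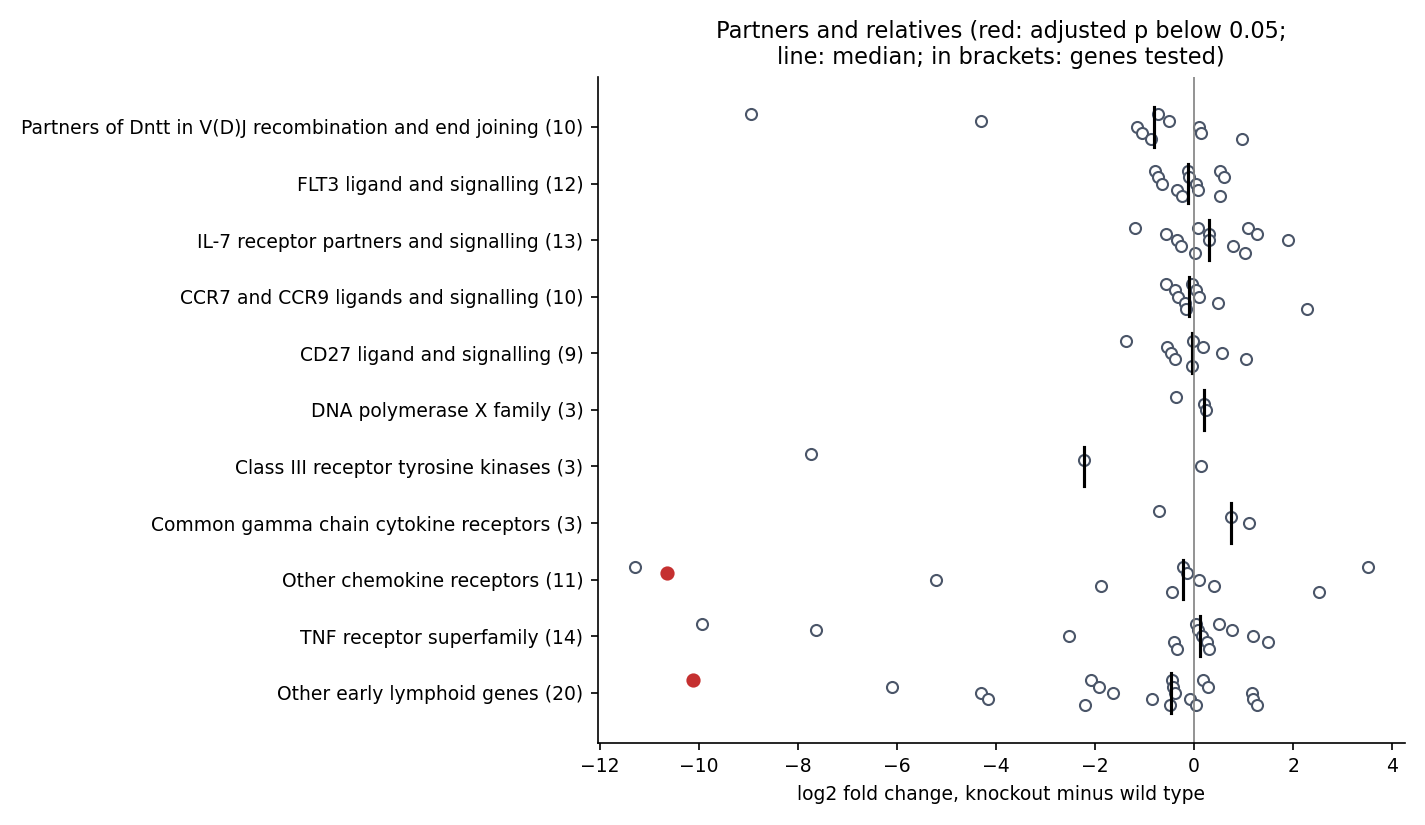
Log2 fold changes, knockout minus wild type, of each tested partner or relative (points), by list, with the number tested in brackets and the median as a line; the red points, Ccr2 and Ikzf3, passed an adjusted p of 0.05. Medians of the 5 lists of direct partners lie between -0.80 and 0.30.

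Of 20 other early lymphoid genes tested, 14 were fitted lower (median -0.47), Ikzf3 fell and 0 rose. Ikzf3, which encodes the lymphoid transcription factor Aiolos, had 310, 687 and 234 counts against 0, 0 and 1. Its adjusted p in the QL test was 0.0496, just under the threshold, and it reached the count filter in wild-type libraries only, as did Ccr2. With any 1 wild-type library or knockout replicate 4 left out, that test called 0 of all genes. For 9 of the 20, Rag2 and Ikzf3 among them, every library labelled knockout was below every wild-type library, where 11.3% of all genes were so placed. For 3 every library labelled knockout was higher, where 10.1% of all genes were.

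The genes with the profile most like each member were sought among 10376 genes, by the root mean square difference of mean-centred log2 CPM over the 6 libraries. For Dntt these were Ctsg, a protease of granulocytes (difference 0.51, 374 ± 162 and 6.27 ± 4.79 CPM), and Mpo, their peroxidase (0.68, 6243 ± 2519 and 156 ± 167 CPM). For Flt3 the nearest was Bex6 (0.35, 91.7 ± 46.3 and 19.9 ± 8.16 CPM). The low genes were matched less closely. Il7r was nearest to Hdc, which makes histamine (1.10), and Rab44 (1.42), Ccr9 to Anxa3 (52.6 ± 18.9 and 1.84 ± 1.99 CPM) and Sema4a (1.27), and Ccr7 to Fcnb, a lectin of myeloid cells (1.10), and Satb1, a chromatin organiser (1.35). Cd27 was nearest to Sgsm1 (0.10) and Snupn (0.10), whose log2 fold changes were 0.25 (SE 0.50) and 0.31 (SE 0.48).

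Markers of other cells were read beside these genes. The multipotent progenitor list also holds genes of granulocyte and monocyte precursors (Mpo, Ctsg, Elane, Ms4a3, Cebpa and Cd33), and all 10 of its genes were fitted lower (median -3.76). Cd48, carried by committed progenitors, fell (adjusted p = 0.042 in the QL test). The list summed to 5745 to 12790 CPM in the wild-type libraries and 587 to 1609 in those labelled knockout, and Mpo made up 6243 ± 2519 of the wild-type CPM. Without Mpo the sums were 4082, 2076 and 3183 CPM against 1268, 570 and 1437 CPM. Cd34 averaged 1138 ± 364 and 678 ± 383 CPM and Myb, a factor of immature progenitors, 383 ± 99.0 and 323 ± 32.6 CPM, both with overlapping groups. All 12 proliferation genes were fitted lower (median -1.87) and Ect2, needed for cytokinesis, fell (adjusted p = 0.0496 in the QL test). Their summed level was 1902 to 2592 against 439 to 1044 CPM. All 13 LT-HSC genes were fitted higher (median 0.99) and Procr, a surface marker of stem cells, rose. Their summed level was 899 to 1996 against 2212 to 3567 CPM. With each library left out in turn, these medians ran from -4.23 to -3.29, from -2.42 to -1.57 and from 0.62 to 1.36. The part of these lists in the values of the lymphoid priming genes was not tested.

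Markers of mature lymphoid and dendritic cells, which also carry several of these receptors, were mostly low. B cell genes summed to 136 to 330 CPM in the wild-type libraries and 73.0 to 157 in those labelled knockout, with 8 of 9 fitted lower (median -2.33, from -3.72 to -0.65 with each library left out). Ms4a1, or CD20, had 299, 350 and 168 against 0, 2 and 1, and Blnk averaged 28.3 ± 6.51 and 5.62 ± 2.67 CPM. T cell genes summed to 92.9 to 190 and 99.5 to 113 CPM, with 5 of 7 fitted lower (median -2.01, from -2.26 to -1.56 with each library left out). The signalling genes Cd247 (99, 0 and 70 counts against 191, 205 and 133) and Lat (48.1 ± 11.6 and 63.7 ± 2.58 CPM) were higher in every knockout-labelled library but did not pass. Cd3e was at 21, 18 and 0 counts against 0, 0 and 11, and Cd4, Cd8a, Bcl11b, Tcf7 and Themis were at 0 in all 3 libraries labelled knockout. Themis was at 0 in all wild-type libraries as well. Wild-type counts were 156, 204 and 0 for Cd4, 32, 0 and 0 for Cd8a and 24, 109 and 45 for Bcl11b. Cd3d had 5, 6 and 11 counts against 0, 5 and 4, and Cd3g 0, 26 and 41 against 0, 10 and 0. Cd8b1 had 0, 51 and 0 counts against 0, 79 and 0. The count filter removed Cd4, Cd8a, Cd3d, Cd3g and Cd8b1. Tcf7, a factor of early T cell development, had wild-type counts of 444, 285 and 162, at least 371-fold above the floor of 3 counts over the knockout group. Without wild-type replicate 1 that bound is 280-fold. Genes of NK and innate lymphoid cells summed to 33.1 to 38.2 CPM in wild type and to 17.8, 39.1 and 15.99 CPM in knockout replicates 4 to 6, with 5 of 7 fitted lower (median -0.60, and from -5.03, without knockout replicate 5, to -0.67 with each library left out). In these 3 lists 0 genes passed the QL test.

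Plasmacytoid dendritic cells, which carry CCR9 and FLT3, had 5 of 7 markers fitted lower (median -0.52, from -1.50 to -0.05 with each library left out), and 0 passed the QL test. Siglech, their defining marker, had 92, 39 and 0 counts against 124, 0 and 0. Irf8, a factor of dendritic cells and monocytes, had 9553, 4025 and 6347 counts against 160, 267 and 13 (log2 fold change -5.88, SE 0.90), and Cox6a2 636, 146 and 75 against 0, 0 and 2. The list summed to 443 to 670 and 254 to 351 CPM. Irf8 averaged 227 ± 89.7 and 3.85 ± 3.29 CPM of this, so the gap between the sums largely follows that gene, and 2 of the 7 markers were fitted higher. Conventional dendritic cells, which carry CCR7 once mature, had 4 of 8 fitted lower (median -0.85, from -4.70 to -0.32 with each library left out), and 0 passed. Their genes summed to 312 to 597 and 674 to 744 CPM, most of it from Cd24a (254 ± 51.0 and 399 ± 56.6 CPM) and H2-Aa (173 ± 101 and 290 ± 86.1 CPM), which many other cells express. Without these genes the sums overlapped, at 19.7 to 43.96 against 12.6 to 30.8 CPM. Xcr1, a marker of 1 subset, had 436, 101 and 129 counts against 22, 1 and 0. Of 8 genes of monocytes and macrophages 5 were fitted lower (median -1.64, from -4.56 to -1.56 with each library left out), and F13a1 and Ccr2 fell. The sums were 807 to 1064 and 807 to 921 CPM, most of it in the knockout-labelled libraries from Lyz2 (505 ± 154 and 779 ± 86.6 CPM). Without Lyz2 they were 453, 384 and 479 against 52.7, 31.6 and 159 CPM, with no overlap. Neutrophil, erythroid and megakaryocyte lists had medians of -0.28, 0.75 and 0.62, whose signs were not stable with each library left out (-1.10 to 0.30, -0.80 to 1.603 and -0.88 to 2.53). They had 0 calls in the QL test, and sums of 102 to 727 and 179 to 644, 133 to 534 and 73.8 to 753, and 173 to 1271 and 265 to 1481 CPM. Whether cells of these types contributed to the counts of Ccr9, Ccr7, Il7r or Flt3 was not tested.

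**Figure D5:**
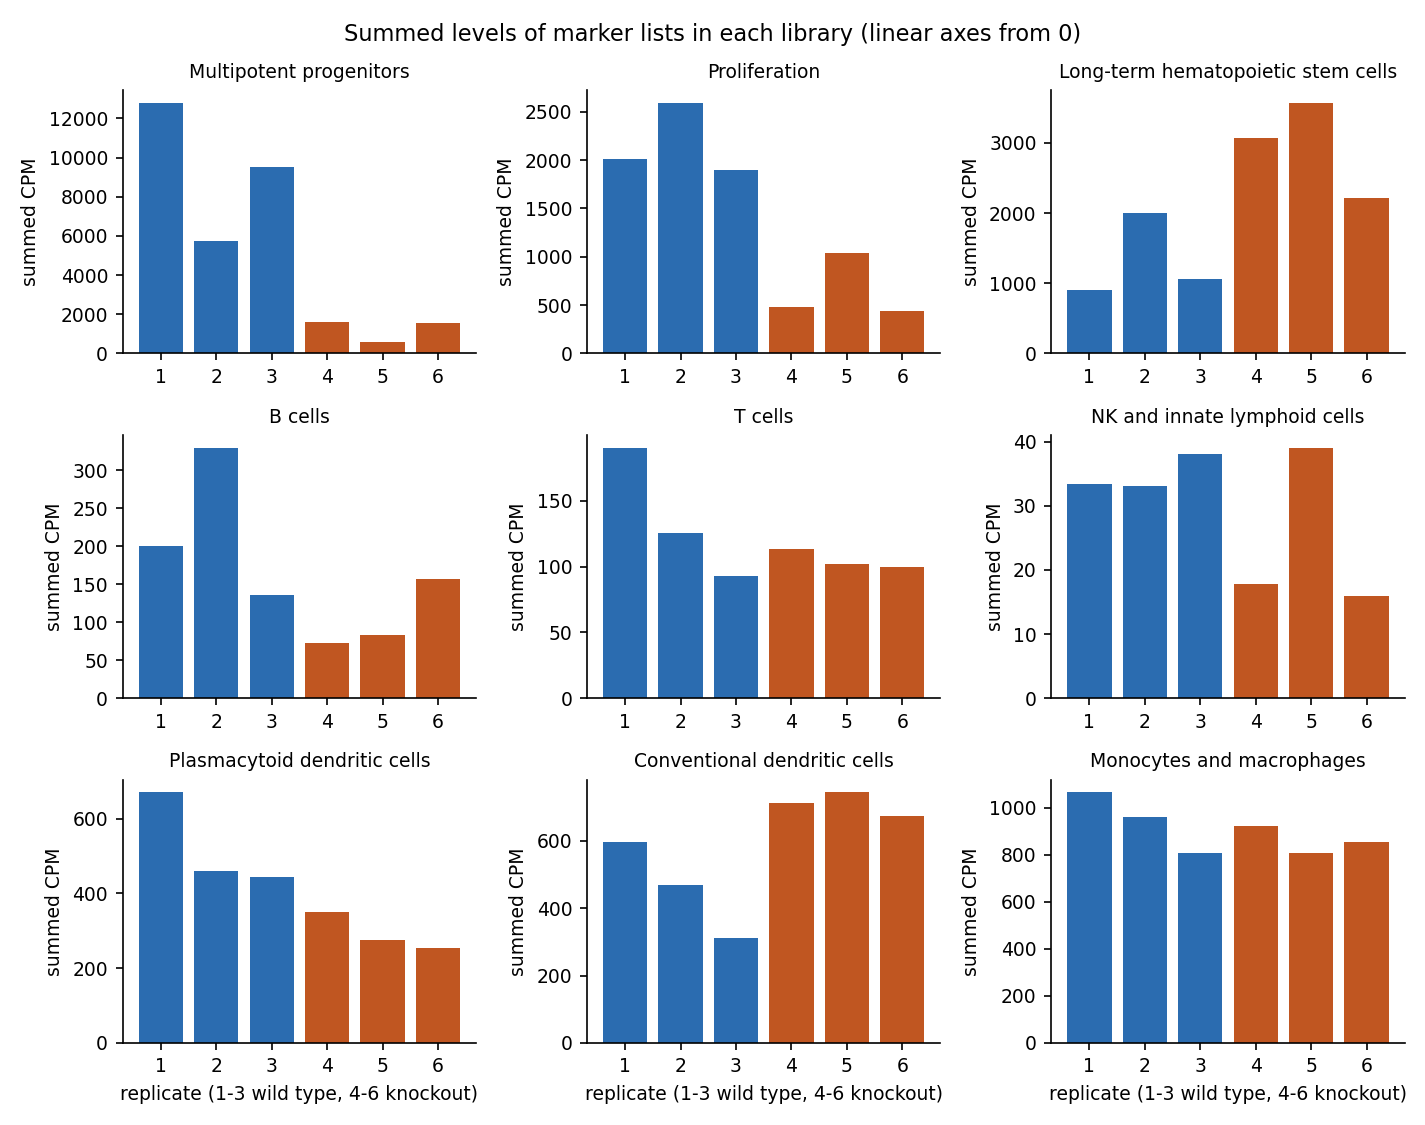
Summed CPM of 9 marker lists in each library, on linear axes from 0, with wild-type replicates 1 to 3 in blue and knockout replicates 4 to 6 in orange. Multipotent progenitor, proliferation and plasmacytoid dendritic cell sums are higher in every wild-type library than in any knockout library, the LT-HSC and conventional dendritic cell sums are lower, and the others overlap. Mpo makes up most of the multipotent progenitor sum in wild type, Cd24a and H2-Aa most of the conventional dendritic cell sum and Lyz2 most of the monocyte sum except in wild-type replicate 3, so these sums largely follow those genes. The gap in the plasmacytoid dendritic cell sum largely follows Irf8, a gene also of monocytes, at 227 ± 89.7 CPM in wild type and 3.85 ± 3.29 CPM in knockout.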

How the data were processed

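RNA-seq measured 6 libraries, made per the labels' protocols with the SMART-Seq v4 and Nextera XT kits, which do not mark strand. The submitters' processing notes name build mm10 and the tools STAR 2.5, edgeR 3.28.1, Trimmomatic 0.40, MultiQC 0.11.5 and FastQC. Per the file headers, the authors deposited raw counts per gene, log2 FPKM, and a fold change (signed, so used only as a score), log2 fold change, p-value and FDR for Cre+ against Cre-. The deposited counts served all tests. The deposited p-values and log2 fold changes are quoted as the authors', and the deposited log2 FPKM were read beside CPM per kilobase and are not printed. The deposited fold score was not analysed here.

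Genes were kept by filterByExpr (minimum 10 counts), leaving 12603 of 13935, scaled by TMM, and tested with R 4.3.3 and edgeR 4.0.16: the quasi-likelihood test, robust, two-sided, Benjamini-Hochberg over all genes, threshold 0.05. This release uses the older form of that test by default, which an alternative had named, so the newer form was added after the data were seen. The SE is the log2 fold change divided by the square root of F, and log2 CPM uses a prior count of 2. Levels per kilobase use the deposited gene lengths. Other tests were DESeq2 1.42.0, edgeR's likelihood ratio test and limma-voom (limma 3.58.1). The test scripts were tested on simulated data. Genes open to naming were the 6 genes, Pcgf2, ligands and obligate partners, the 2 genes most like each of the 6, and from each of 23 lists the called genes (at most 4) or else the 2 with the smallest p, of which not all are reported here. Cd3d, Cd3e, Cd3g, Cd4, Cd8a, Cd8b1, Themis, Cd247, Lat, Siglech, H2-Aa, Lyz2, Cd34, Myb, Elane, Ms4a3, Cebpa, Cd33, Kit, Il4ra, Il2ra, Il2rb and Polm fall outside that rule and were named after their values were seen, and list sums without their most abundant genes were added then. The genes and lists were chosen with earlier results of these data known. The deposited exons of Ccr9 and Cd27 overlap exons of other genes in GENCODE M21 over 1.28% and 0.698% of their bases, and those of the other 4 over none. Floors cover counting error only. The interval given for Cd27 comes from the SE of the quasi-likelihood fit and so includes the spread between these libraries.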

Additional observations from a re-analysis of the deposited data

How the results depend on the processing

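The 6 fold changes kept their sign in all alternatives run, except that of Cd27, which was -0.0114 without wild-type replicate 2 and up to 0.53 without other libraries. Of these genes, 3 were called lower by DESeq2 and 3 by the likelihood ratio test, and 1, Dntt, by the newer quasi-likelihood form, with no filter on low counts, and at an adjusted p below 0.10. Over all genes the counts, higher and lower, were 205 and 325 with DESeq2, 144 and 288 with the likelihood ratio test, 17 and 67 with the newer form, 0 and 0 with limma-voom, and 14 and 51 at an adjusted p below 0.10, against 2 and 16 in the main test. With no filter 25 were lower. Leaving out single libraries gave 0 to 2 higher and 0 to 47 lower, with 0 of the 6 genes called each time. The 47 came without knockout replicate 6 and 4 without knockout replicate 5; without any 1 of the other 4 libraries edgeR called 0, while 1079 to 1465 genes had p below 0.05 before adjustment. For limma-voom that number was 1775. The cause of these differences was not tested. The filter of 50 counts in 3 libraries removed Il7r, Ccr9 and Ccr7. No paired analysis was possible because the groups share no replicate numbers. Of 3 counts or fewer in a library nothing can be said at this depth beyond a level under 0.0782 to 0.115 CPM.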
